A study of Homo sapiens with 20 samples.

Results

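The regions described here are pairs of 5 kb anchors, each pair standing for 1 candidate chromatin loop, that were listed in both STAG2-mutant glioblastoma cell lines and in neither STAG2-corrected derivative. Members were chosen by list membership, that is, by the measured loop strength in all 4 lines. A pair was a member if the same left and right anchor occurred among the 300000 strongest pairs of H4 and of 42MGBA and was missing from the 300000 strongest pairs of H4 88-1 and of 42MGBA 53-1. The rule found 8959 members among 572000 anchor pairs listed in at least 1 line, which is 1.57% of them.

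H4 and 42MGBA are established human glioblastoma lines, each with its own truncating mutation of STAG2, and both were grown in serum-containing DMEM. Their isogenic derivatives, in which gene editing had corrected the mutation, are named H4 88-1 for the first line and 42MGBA 53-1 for the second. Each derivative is a single line, so the correction cannot be told apart from other differences between a parental line and that derivative. Genome-wide contact maps were made by Hi-C, in 8 samples with 2 replicates per line, and the deposited lists hold 1 pooled strength per pair and line. Replicate error could therefore not be computed, and every value below is a description without a test. The 12 RNA-seq samples of the same lines were not analysed here.

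STAG2 is a subunit of cohesin, the ring complex that extrudes chromatin loops until it meets CTCF, a zinc finger protein bound at sites that face each other across the loop. Vertebrate cells carry cohesin with either STAG2 or its paralog STAG1. Cohesin with STAG1 is known to be the more stably bound of the pair, and cohesin with STAG2 is known for shorter contacts, such as those between enhancers and promoters within a domain.

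The sequences below show the CTCF core matches of 8 members, because these members had a match that pointed inward at both anchors and had no listed pair within 5 anchor steps in either STAG2-corrected line. An anchor step is the distance from one anchor to the next along the chromosome, and the median anchor was 4898 bases long. The search used the CTCF core consensus, a motif of 12 letters, on both strands of the GRCh37 genome. Capitals mark the match, each run is written 5′ to 3′ on the strand of the match, and 40 bases are given around the first match of the anchor. The 8 pairs are ordered by the smaller of their ratios to the floors of the corrected lists.

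NCAM2 intron, left anchor, chr21:22376227-22376266, + strand: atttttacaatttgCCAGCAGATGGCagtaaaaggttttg
Intergenic, right anchor of the NCAM2 pair, chr21:24164465-24164504, - strand: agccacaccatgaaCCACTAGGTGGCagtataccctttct
Intergenic near NRIP1, left anchor, chr21:16236724-16236763, + strand: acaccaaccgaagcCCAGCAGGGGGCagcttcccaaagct
Intergenic, right anchor of the NRIP1 pair, chr21:16855666-16855705, - strand: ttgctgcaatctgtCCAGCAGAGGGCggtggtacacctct
PRCP and DDIAS intron, left anchor, chr11:82617387-82617426, + strand: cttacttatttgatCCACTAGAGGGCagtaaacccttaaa
DLG2 intron, right anchor of the PRCP pair, chr11:83527805-83527844, - strand: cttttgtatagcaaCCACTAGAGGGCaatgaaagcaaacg
RNF6 intron, left anchor, chr13:26759010-26759049, + strand: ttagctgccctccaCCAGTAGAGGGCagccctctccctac
Intergenic near WASF3, right anchor of the RNF6 pair, chr13:27272991-27273030, - strand: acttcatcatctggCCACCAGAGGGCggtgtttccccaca
Intergenic near FOXC1, left anchor, chr6:1596650-1596689, + strand: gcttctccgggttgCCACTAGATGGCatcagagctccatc
Intergenic near MYLK4, right anchor of the FOXC1 pair, chr6:2634859-2634898, - strand: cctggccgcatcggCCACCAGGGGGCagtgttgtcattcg
Intergenic near CDH5, left anchor, chr16:66440523-66440562, + strand: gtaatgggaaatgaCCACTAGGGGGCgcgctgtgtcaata
NAE1 intron, right anchor of the CDH5 pair, chr16:66901882-66901921, - strand: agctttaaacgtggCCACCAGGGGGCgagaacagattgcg
RORA intron, left anchor, chr15:60878157-60878196, + strand: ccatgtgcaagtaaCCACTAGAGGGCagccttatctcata
Intergenic near VPS13C, right anchor of the RORA pair, chr15:62127865-62127904, - strand: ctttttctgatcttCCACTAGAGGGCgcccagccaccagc
LRMDA intron, left anchor, chr10:77790630-77790669, + strand: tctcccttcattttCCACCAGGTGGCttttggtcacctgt
LRMDA intron, right anchor of the LRMDA pair, chr10:78307295-78307334, - strand: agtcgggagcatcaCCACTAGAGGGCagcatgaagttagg

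Here and below, the strongest member of a set is the member with the largest sum of its strengths in H4 and 42MGBA, which need not be the highest in each line. By that sum the strongest of these 8 pairs started in NCAM2, which encodes a neural cell adhesion molecule. It spanned 1789.7 kb on chromosome 21 and had a loop strength of 7.50 in H4 and 6.71 in 42MGBA. The pair near NRIP1, which encodes a nuclear receptor corepressor, spanned 618 kb with strengths of 7.75 and 5.12. The RNF6 to WASF3 pair spanned 516 kb with 4.79 and 6.31, and the pair from beside FOXC1, a forkhead transcription factor gene, spanned 1039 kb with 5.25 and 4.52. The RORA pair was weak in H4, at 4.60, and higher in 42MGBA, at 6.68, over 1246 kb. The LRMDA pair, with both anchors in introns of that gene, was the weakest in H4, at 4.31, against 5.41 in 42MGBA.

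Such inward-facing pairs of matches were rare among all listed pairs. They occurred in 24 members, or 0.268% (exact 95% binomial interval 0.172 to 0.398%), in 0.195% of pairs listed in any line, in 0.223% of pairs listed only in the corrected lines and in 0.398% of pairs listed in all 4 lines. The opposite orientation, with both matches pointing outward, occurred in 2 members. The 24 members lay in 24 separate groups and spanned 4.83 to 1974 kb. A match on either strand was present in 5.75% of the 10448 anchors that hold a member, in 5.53% of anchors of pairs listed only in the corrected lines and in 3.93% of all 128561 listed anchors. With the shorter exact core AGGGGGCGC, 3 members (0.0335%) had an inward-facing pair, against 8 pairs (0.105%) listed only in the corrected lines and 0.0332% of all listed pairs. With this core the share was thus lower among members than among pairs listed only in the corrected lines. Member anchors had a median GC content of 41.3%, against 43.5% for anchors of pairs listed only in the corrected lines and 41.8% for all listed anchors.

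The opposite and the crossed patterns, counted on the same lists, put the number of members in context. Pairs listed only in the STAG2-corrected lines numbered 7635, or 1.33%. The crossed patterns, which join 1 mutant line to the corrected derivative of the other parent, numbered 4835 (0.845%) for H4 with 42MGBA 53-1 and 7582 (1.33%) for H4 88-1 with 42MGBA. The members thus outnumbered the opposite pattern and both crossed patterns, at 1.44 times the mean of the crossed patterns. This order did not hold under every alternative. With 1 common strength floor for all lines, which also raised the strength needed in H4, there were 6842 members, below the 7148 pairs listed only in the corrected lines. The crossed patterns then moved apart, to 2003 for H4 with 42MGBA 53-1 and 12213 for H4 88-1 with 42MGBA, and the ratio of members to their mean was 0.963. Where absence also required that no pair within 1 anchor step be listed, the order was kept, with 1994 members against 1714 pairs listed only in the corrected lines and 969 and 1566 in the crossed patterns. Without chromosomes 21, 13, 11 and 6, an alternative chosen after seeing the data, there were 6655 members against 6991 pairs listed only in the corrected lines.

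Most pairs that left the list with STAG2 correction in one system were not members. Of pairs listed in H4 or H4 88-1, 86725 (22.4%) were listed in H4 and not in H4 88-1, and of pairs listed in 42MGBA or 42MGBA 53-1, 95862 (24.2%) were listed in 42MGBA alone. Among the 86725 H4 pairs, 59445 were listed in neither 42MGBA line, 13486 in both, 8959 in 42MGBA alone and 4835 in 42MGBA 53-1 alone. Where 1 of the 42MGBA lines listed such a pair it was therefore the mutant line in 64.9% of cases. The same share was 49.8% for pairs listed in H4 88-1 and not in H4, but 66.8% for pairs listed in both H4 lines and 43.2% for pairs listed in neither.

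The members were mostly in the weaker part of both mutant lists. Their strength in H4 ran from 4.14 to 9.69 with a median of 4.63, where the whole H4 list had a median of 5.17 and pairs listed in all 4 lines had 6.23. In 42MGBA it ran from 4.49 to 10.8 with a median of 5.01, against 5.54 for the whole list and 6.80 for pairs listed in all 4 lines. Only 643 members were among the 100000 strongest pairs of H4 and 801 among those of 42MGBA, while 2688 and 2527 ranked below 250000.

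Absence from a list means a strength under that list's lowest value, here called its floor, and not a strength of 0. The floors of H4 and its derivative were 4.14 and 4.44, and those of 42MGBA and its derivative were 4.49 and 4.28. No common scale of the lists is stated, so a ratio across lines is a guide to margin and not a measured fold change. The ratio of a member's strength to the floor of the corrected line had a median of 1.04 in the H4 system and 1.17 in the 42MGBA system, and its highest values were 2.18 and 2.52. In H4, 3072 members were weaker than the floor of H4 88-1. A ratio of 1.1 or more in both systems was reached by 2339 members (26.1%) and of 1.5 or more by 35, which lay in 18 groups. Pearson's r between H4 and 42MGBA strength was 0.139 over the 8959 members and 0.589 over the 158400 pairs listed in both lines. Many points share anchors. The members were chosen on these same strengths, which limits their range, so the lower r is not read as a trait of the members.

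**Figure D1:**
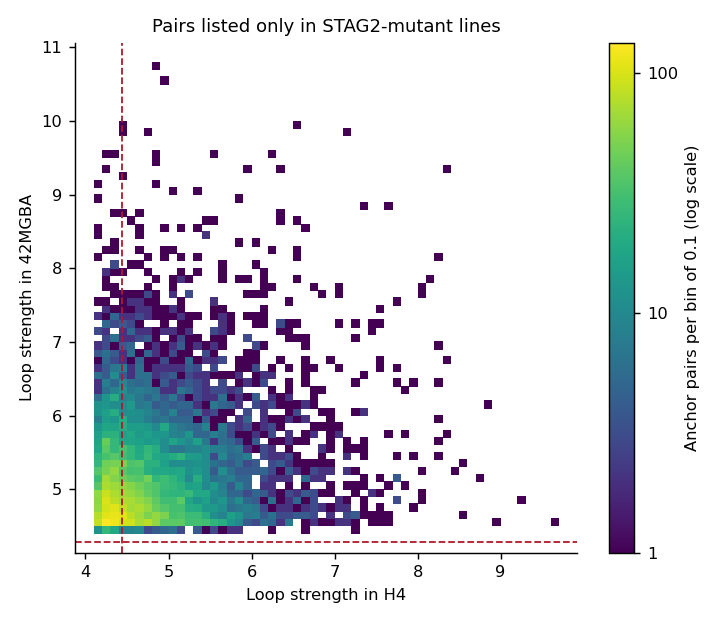
Loop strength of the 8959 pairs listed only in STAG2-mutant lines, in H4 (x axis) and 42MGBA (y axis), as the number of pairs per bin of 0.1 on a log colour scale; dashed lines mark the lowest listed strength of H4 88-1 (vertical, 4.44) and 42MGBA 53-1 (horizontal, 4.28). Most pairs sit near the lower left corner, 3072 of them left of the vertical line, and few are strong in both lines.

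The pairs at the edge of the rule show how fine it was. The weakest member in H4 joined an intron of RNF6, a ubiquitin ligase gene, to intergenic sequence 6.18 kb beyond WASF3. Its strength was 4.14 in H4 and 5.99 in 42MGBA. The weakest in 42MGBA ended at PAK6, a kinase gene, with 4.49 and with 4.21 in H4. Just outside the rule, a pair at ACSL3 had 4.53 in H4, 4.44 in H4 88-1 and 4.73 in 42MGBA and was kept out by the H4 88-1 value. A pair from an intron of IGFBP5 had 5.05 in H4, 5.11 in 42MGBA and 4.28 in 42MGBA 53-1.

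The members were longer than the other patterns with 1 line of each parent. Their median size, from anchor midpoint to anchor midpoint, was 442 kb (quartiles 261 and 665 kb), against 199 kb for pairs listed only in the corrected lines, 287 and 305 kb for the crossed patterns, 305 kb for pairs listed in all 4 lines and 301.3 kb for all listed pairs. Some other patterns were also long. The median was 418 kb for pairs listed in H4 alone and 394 kb for pairs missing from 42MGBA 53-1 alone. It was 373 kb for pairs listed in both H4 lines alone and 342 kb for pairs listed in 42MGBA alone. Pairs missing from H4 88-1 alone, which 42MGBA 53-1 does list, had a median of 357 kb. Among pairs of 1000 kb or more, 824 (3.86%) were members and 38 (0.178%) were listed only in the corrected lines, while the crossed patterns held 0.685 and 0.853%. From 500 to 1000 kb the members held 2.58% and the opposite pattern 0.561%. Below 100 kb the order turned, with 0.909% members and 1.95% listed only in the corrected lines. The difference of 243 kb between the medians of members and of pairs listed only in the corrected lines lay between 229.9 and 349 kb under the alternatives of depth, floor, absence and chromosomes. With 1 pair per group of neighbours in each pattern, an alternative chosen after seeing the data, it was 168 kb, from medians of 378 and 209.7 kb.

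**Figure D2:**
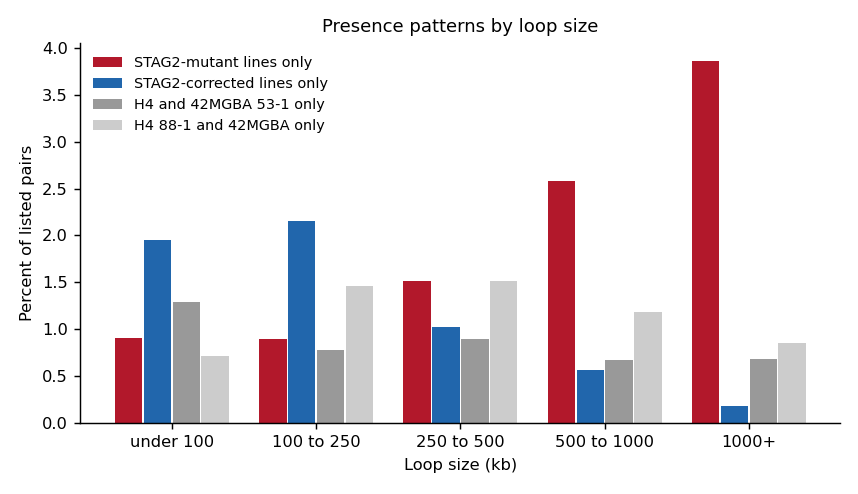
Percent of the listed pairs of each size class (x axis, kb) that were listed only in the STAG2-mutant lines, only in the STAG2-corrected lines, or in 1 of the crossed combinations (bars, y axis from 0). Pairs listed only in the mutant lines rise from 0.909% below 100 kb to 3.86% at 1000 kb or more, and pairs listed only in the corrected lines decline from 1.95% to 0.178%.

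The longer size held on nearly every chromosome. On 22 of the 23 chromosomes with 20 or more members, the median member was longer than the median pair listed only in the corrected lines. Chromosome 19 was the exception, at 78.4 against 82.1 kb. The medians of the members ranged from 78.4 kb there to 557 kb on chromosome 7, with an SD of 126 kb over the 23 chromosomes.

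The number of members was uneven along the genome. Their share of listed pairs was highest on chromosome 21, at 3.49% (405 members), followed by chromosome 13 at 3.13%, chromosome 11 at 2.84% (931 members) and chromosome 6 at 2.64% (827 members). Among the chromosomes with 20 or more members it was lowest on X, at 0.771%, and 16, at 0.806%. Chromosome 2 had the largest count, 959. On chromosome 11 the 42MGBA list held 19677 pairs and the 42MGBA 53-1 list 11534, and on chromosome 6 they held 18709 and 12663. On both chromosomes the crossed pattern of H4 88-1 with 42MGBA was also frequent, with 919 and 724 pairs. On chromosome 21 the H4 list held 5502 pairs and the H4 88-1 list 4126, while both 42MGBA lists were of like length, 7990 and 7931. The part of these differences in list length in the counts of members was not tested, and copy number was not measured here. Members outnumbered pairs listed only in the corrected lines on 12 of the 23 chromosomes.

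**Figure D3:**
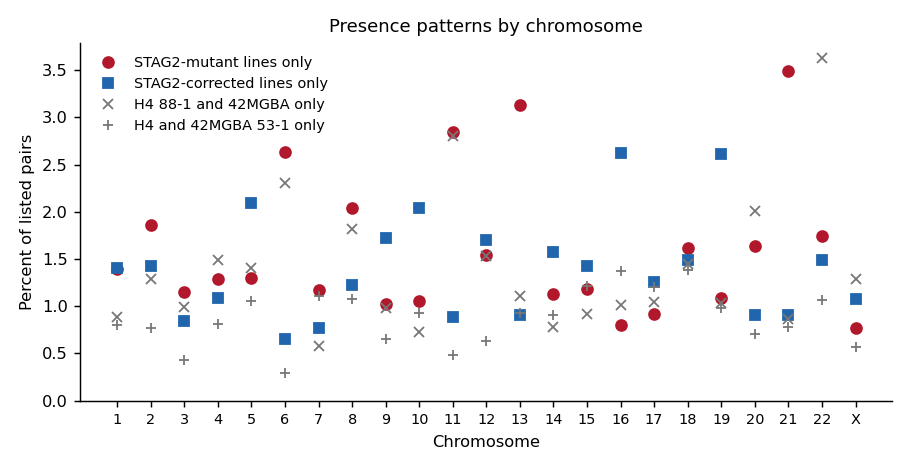
Percent of the listed pairs of each chromosome (x axis) in the 4 presence patterns (y axis from 0); circles are pairs listed only in the STAG2-mutant lines and squares pairs listed only in the STAG2-corrected lines. Circles stand highest on chromosomes 21, 13, 11 and 6, and on 11 and 6 the crosses for H4 88-1 with 42MGBA lie close to them, at 919 and 724 pairs.

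Members came in patches on the contact map. Joined when both anchor midpoints lay within 10 kb, they formed 3103 groups, of which 1444 held 1 member and 146 held 10 or more. Those 146 groups held 2278 members (25.4%). Neighbouring members share anchors, so they are not independent of each other.

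The patches of the mutant lines usually reached beyond the members, and the corrected lines usually listed something close by. Of the 8 pairs around a member, H4 listed 61.6% on average, 42MGBA 61.3%, H4 88-1 20.1% and 42MGBA 53-1 17.4%. Around pairs listed only in the corrected lines the same shares were 17.7, 20.4, 60.6 and 61.9%, the mirror image, so the rule that chose the pairs gives a contrast of this size in either pattern. For 77.7% of members at least 1 corrected line listed a pair within 1 anchor step. The remaining 1994 members (22.3%) had no such neighbour, and the share without a neighbour was alike in the other patterns, at 22.4% for pairs listed only in the corrected lines and 20.04 and 20.7% for the crossed patterns. No pair within 5 steps was listed for 774 members (8.64%), whose median size was 596 kb. These shares were 7.07% in the opposite pattern and 5.79 and 6.86% in the crossed ones.

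**Figure D4:**
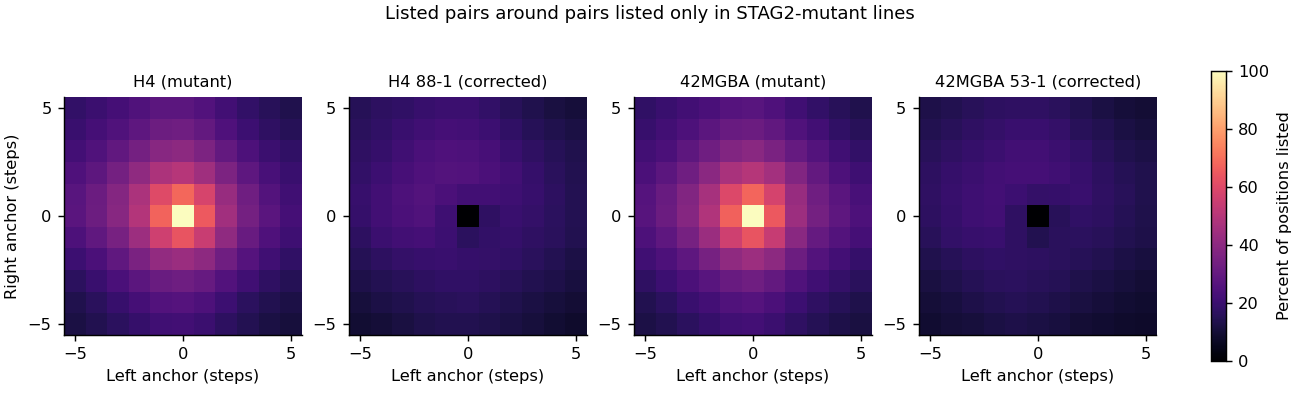
Percent of positions listed in each of the 4 lines (colour, 0 to 100) by distance in anchor steps from a member's left anchor (x axis) and right anchor (y axis). The centre is 100 in the STAG2-mutant lines and 0 in the STAG2-corrected lines by the rule, and the 8 positions around it average 61.6 and 61.3% in H4 and 42MGBA against 20.1 and 17.4% in H4 88-1 and 42MGBA 53-1; the surroundings of pairs listed only in the corrected lines were the mirror image.

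An anchor of a pair listed in all 4 lines was used from the same side by 82.9% of members, by 87.5% of pairs listed only in the corrected lines and by 87.2 and 81.8% in the crossed patterns. Of these members, 28.3% were longer than the longest common pair at that anchor, against 17.7% of pairs listed only in the corrected lines and 23.4 and 26.2% in the crossed patterns.

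The largest group lay on chromosome 2, between a gene desert beyond KCNH7 and the downstream end of GRB14. That gene encodes an adaptor that binds insulin receptors and lies on the minus strand. The start counted for it there is that of an annotated transcript. The group held 65 members of 1278 to 1369 kb. Its strongest member joined chr2:164006184-164010908 to chr2:165345940-165350879, the second of these over exonic sequence of GRB14, with strengths of 7.66 in H4 and 8.85 in 42MGBA. Of the 182 anchor pairs within the bounds of this group, H4 listed 138, H4 88-1 57, 42MGBA 124 and 42MGBA 53-1 6. A loop was therefore still listed nearby in H4 88-1, at up to 7.94, where H4 had up to 10.8 within the same bounds. In 42MGBA 53-1 the strongest was 5.00, against 11.3 in 42MGBA. A second group of 35 members ran beside it, with an anchor 69.2 kb from GRB14. Of its 135 positions H4 listed 81, H4 88-1 33, 42MGBA 74 and 42MGBA 53-1 1, and its members had up to 8.28 in H4 and 8.58 in 42MGBA.

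Chromosome 21 held 3 of the 12 largest groups. The first, with 54 members of 633 to 725 kb, ran from 35.3 kb beside ADAMTS1, the gene of a secreted metalloproteinase, into intergenic sequence. Within its 234 positions H4 listed 113 pairs, H4 88-1 9, 42MGBA 105 and 42MGBA 53-1 47. The others lay around RUNX1, a transcription factor gene mutated in leukaemia. One, of 30 members, joined sequence 17.7 kb from RUNX1 to an intron of the gene, and there the strongest listed pair was 8.71 in H4 88-1 and 7.66 in H4. The other, of 24 members, joined introns of RUNX1 to each other, where H4 listed 50 pairs and its corrected line 17, and 42MGBA listed 50 and its corrected line 20.

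At SEMA6D, the gene of a transmembrane semaphorin that guides axons, a group of 36 members linked an intron of the gene to intergenic sequence 117 kb from SLC24A5. Its strongest member joined chr15:47487825-47492461 to chr15:48293697-48298670 over 806 kb and had 7.70 in H4 and 7.54 in 42MGBA. The group's 96 positions held 70 listed pairs in H4, 18 in H4 88-1, 62 in 42MGBA, with 21 in 42MGBA 53-1. The mutant lines thus listed most of the patch and the corrected lines its smaller part.

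The histone gene cluster of chromosome 6 gave the largest group with nothing listed nearby in either corrected line. Its 33 members joined a part of the cluster with H2AC11, H2AC12, H2BC11, H2BC12 and H4C9 to another with H2AC17, H2BC17 and H3C12, over 718 to 775 kb. The strongest joined chr6:27118881-27123898 to chr6:27865593-27870405, both outside protein-coding genes, with 8.07 in H4 and 7.77 in 42MGBA. Of the 52 positions in the group, H4 listed 33, 42MGBA 42 and the corrected lines 0. Histone genes are near copies of each other, and the lists rest on uniquely aligned reads, so their strengths are uncertain where copies share sequence.

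The other 5 of the 12 largest groups lay on chromosomes 6, 7, 10 and 11. In an intergenic part of chromosome 11, 500.2 kb from FAM181B at its nearer end, 37 members reached 8.36 in H4 and 9.86 in 42MGBA, and the positions of the group held 50 pairs in H4, 6 in H4 88-1, 62 in 42MGBA, with 12 in 42MGBA 53-1. The strongest member there, of 592 kb, had the largest margin of all members by the rule used, with ratios of 1.88 and 2.19 to the floors of the corrected lines. At BACH2, a transcriptional repressor gene of lymphocytes, 38 members had up to 5.81 in H4 and 8.08 in 42MGBA. The member with 8.08 in 42MGBA had only 4.35 in H4. Of the 91 positions there H4 listed 59, H4 88-1 12, 42MGBA 79 and 42MGBA 53-1 21. The strongest listed pair was 5.87 in H4 and 5.51 in H4 88-1, and 9.69 in 42MGBA and 5.35 in 42MGBA 53-1. At JMJD1C, a gene of the Jumonji family, 26 members lay beside 8 and 11 listed pairs of the corrected lines. Between MTMR2 and CCDC82, with 28 members, the corrected lines still listed 71 and 72 of 153 positions. The strongest pair there was 13.8 in H4 88-1 and 11.97 in H4, so both H4 lines listed a strong loop within the bounds of that group. Between TNS3 and PKD1L1, with 24 members, 55 and 34 of 120 positions were listed in the corrected lines. Within 3 kb of a transcript start of PKD1L1 there were 9 members but 37 pairs listed only in the corrected lines. Each corrected line also listed more pairs there than its parental line. The counts were 494 against 452 for the H4 system, and 249 against 216 for the 42MGBA system.

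Other members with a large margin in both systems were also long. A pair of 938 kb from beside TFPI, the gene of an inhibitor of coagulation, to an intron of GULP1 had 8.22 in H4 and 8.18 in 42MGBA. A pair of 1078 kb from beside CRBN, the gene of a ubiquitin ligase substrate receptor, to an intron of SUMF1 had 7.49 and 7.18. A pair of 1060 kb from a transcript start of BASP1, a gene of a growth cone protein, had 7.21 and 7.08. Near all of these at least 1 corrected line listed a pair within 1 anchor step of the member.

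The longest member, of 1974 kb, joined the region beside MYC, the proto-oncogene, to intergenic sequence 41.2 kb from GSDMC, with 4.35 in H4 and 6.37 in 42MGBA. The shortest, of 4.28 kb, joined adjacent anchors over PYGO2 and SHC1, with 5.51 and 6.07. It belonged to a short-range group of 10 members over neighbouring gene starts.

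A start site here is that of any annotated transcript of a gene, so it can lie inside the gene. Start sites of protein-coding genes lay within 3 kb of an anchor in 3705 members, or 41.4%. The share was 49.6% for pairs listed only in the corrected lines, 46.8 and 49.5% for the crossed patterns and 44.5% for all listed pairs. Pairs of 500 to 1000 kb had fewer start sites than pairs below 100 kb in every pattern. From 500 to 1000 kb the share was 31.2% for members, 32.2% for pairs listed only in the corrected lines and 34.3% for all pairs. The crossed patterns had 31.2 and 39.8% there. At 1000 kb or more the shares lay further apart, at 26.5% for members, 28.9% for the opposite pattern and 42.5 and 19.2% for the crossed patterns. Below 100 kb the 523 members had a larger share, 79.7%, than pairs listed only in the corrected lines, 61.5%, and all listed pairs, 57.7%. The crossed patterns lay between, at 69.85 and 69.93%, and pairs listed in all 4 lines had 65.5%.

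Of 10025 protein-coding genes with a start within 3 kb of any listed pair, 1739 (17.3%) had a member there and 1676 (16.7%) had a pair listed only in the corrected lines. Genes with more listed pairs had members more often. The share ran from 5.0% of genes with 1 to 10 listed pairs to 54.3% of genes with over 100, and the lists below are to be read against it.

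Of 49 developmental transcription factor genes outside the homeobox and T-box families, 16 (32.7%) had a member and 5 a pair listed only in the corrected lines. Crossed-pattern pairs were at 4 of these genes for H4 with 42MGBA 53-1 and at 13 for H4 88-1 with 42MGBA. TFAP2A, the AP-2 factor of neural crest, had 13 members of 859 to 1442 kb, the strongest at 7.31 in H4 and 6.02 in 42MGBA. Its start held 117 listed pairs in H4, 38 in H4 88-1, 28 in 42MGBA, with 0 in 42MGBA 53-1. FOXC1 had 12 members and 33, 19, 40 and 6 listed pairs in the same order of lines. NR2F2, an orphan nuclear receptor gene, had 23 pairs in H4, 5 in 42MGBA and 0 in either corrected line. All 5 of those 42MGBA pairs were members, of 905 to 915 kb, and the strongest had 6.93 in H4 and 5.89 in 42MGBA. At SNAI2, by contrast, 8 members stood among 249, 264, 395 and 372 listed pairs.

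Among 63 homeobox and T-box genes with a listed pair, 18 (28.6%) had a member and as many had a pair listed only in the corrected lines. EMX1, a homeobox gene of the forebrain, had the most, 12 members of 228 to 252 kb, which ended near RAB11FIP5. Its start held 21 pairs in H4, 1 in H4 88-1, 16 in 42MGBA, with 0 in 42MGBA 53-1. The members at HOX genes were few beside the pairs listed there. HOXB3 had 6 among 462 pairs in H4, and HOXA3 had 5 among 292.

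Of 24 axon guidance genes with a listed pair, 7 (29.2%) had a member and 5 a pair listed only in the corrected lines. Pairs of the crossed patterns were at 2 and 5 of these genes. The list had a median of 34.5 listed pairs per gene, where all genes had 16. SLIT2, the gene of a secreted repellent of growing axons, had 20 members of 933 to 1029.5 kb, and none of the 20 had a pair within 5 anchor steps in a corrected line. The strongest joined its start to a gene desert 1018 kb away with 6.67 in H4 and 6.98 in 42MGBA. SLIT2 was not without loops in H4 88-1, which listed 35 pairs at its start against 65 in H4, 33 in 42MGBA, with 1 in 42MGBA 53-1. SEMA6D had 16 members, with 22 pairs listed in each mutant line and 2 in each corrected line. SEMA3D had 5 members among 287, 222, 127 and 67 pairs. EPHA4, NRP1, NRP2 and NTN4 had 1 to 3 each.

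Of the growth factors and receptor tyrosine kinases, 8 of 22 (36.4%) had a member and 5 a pair listed only in the corrected lines. Pairs of the crossed patterns were at 4 and 6 of these genes, which had a median of 55.5 listed pairs. PDGFD, a ligand of the PDGF receptor beta, had 5 pairs in H4, 9 in 42MGBA and 0 in both corrected lines, and 5 of its pairs were members of 474 to 488 kb, the strongest at 5.64 in H4 and 6.79 in 42MGBA. FGF1 had 10 members among 94, 50, 70 and 77 pairs, NRG1 had 8 among 99, 79, 75 and 43, and PDGFRA had 4 among 44, 58, 150 and 49. At FGF7, 2 members of 555 and 559.7 kb were listed, with 3, 2, 94 and 64 pairs in all.

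Genes of the extracellular matrix and of mesenchymal glioma had members in 16 of 34 (47.1%). Pairs listed only in the corrected lines were at 8 of them, and pairs of the crossed patterns at 9 and 13. These genes also had many loops, with a median of 98.5 listed pairs where all genes had 16. CD44, the hyaluronan receptor, had 23 members of 186 to 288 kb, with strengths of up to 5.37 in H4 and 6.11 in 42MGBA. In H4 its pairs did not drop with correction, being 62 in H4 and 71 in H4 88-1, while they were 197 in 42MGBA, with 69 in 42MGBA 53-1. COL6A3 had 12 members but more listed pairs in the corrected lines, with 203, 288, 361 and 505. TGFB2 had 8 members, all without a pair within 5 steps in a corrected line, among 302, 193, 100 and 133 pairs.

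Ion channel and transporter genes had members in 7 of 18 (38.9%) and pairs listed only in the corrected lines in 4. Pairs of the crossed patterns were at 3 and 5 of these genes, which had a median of 36 listed pairs. KCNQ5, a potassium channel gene on chromosome 6, had 23 members of 477 to 797 kb among 143 pairs in H4, 112 in H4 88-1, 161 in 42MGBA, with 0 in 42MGBA 53-1. SLC1A2, the glial glutamate transporter gene on chromosome 11, had 15 among 509, 400, 248 and 38. Both genes lie on the chromosomes where the whole 42MGBA 53-1 list was short. So do other loci described here, among them TFAP2A, FOXC1, CD44, PDGFD, ACAT1 and the BACH2 and histone groups. Whether the lower counts of 42MGBA 53-1 at these loci go beyond those of the whole chromosome was not tested. Of 15 adhesion and synapse genes with a listed pair, only NCAM1 and NCAM2 had members, while 3 had a pair listed only in the corrected lines. Pairs of the crossed patterns were at 0 and 2 of these genes, which had a median of 8 listed pairs. NCAM2 had 12 listed pairs in H4, 12 in 42MGBA and 0 in either corrected line, and 7 were members, of 1554 to 1795 kb.

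Of 23 genes of cohesin, CTCF and Polycomb subunits, 5 had a member and 1 had a pair listed only in the corrected lines. Pairs of the crossed patterns were at 2 and 3 of these genes. NIPBL, the cohesin loader gene, had 4 members of 249 to 254 kb with up to 5.85 in H4 and 6.33 in 42MGBA. EED, a core subunit of Polycomb repressive complex PRC2, had 4 members but 12 pairs listed only in the corrected lines, among 80, 128, 100 and 71 listed pairs in the order of lines used above. JARID2, a PRC2 cofactor gene, had 3 members of 1285 to 1289.9 kb. CBX6 and CBX7, genes of Polycomb readers, had 1 each.

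Of the 10 genes named by the study, 6 had a listed pair at a start and TCF4 and FGF7 had members. TCF4, the gene of a neural basic helix-loop-helix factor, had 8 members of 451 to 1344 kb, with 40 listed pairs in H4, 41 in H4 88-1, 29 in 42MGBA, with 12 in 42MGBA 53-1. Its members had strengths of up to 5.35 in H4 and 5.59 in 42MGBA, and the member with the largest sum, at 4.95 and 5.47, reached to 26.5 kb from TXNL1 over 1150.1 kb. PKNOX2 and EDN1 had no member, and they had 15 and 7 pairs listed only in the corrected lines. KIT had 25 pairs in 42MGBA, with 0 in 42MGBA 53-1 but 0 in H4, and so no member.

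**Figure D5:**
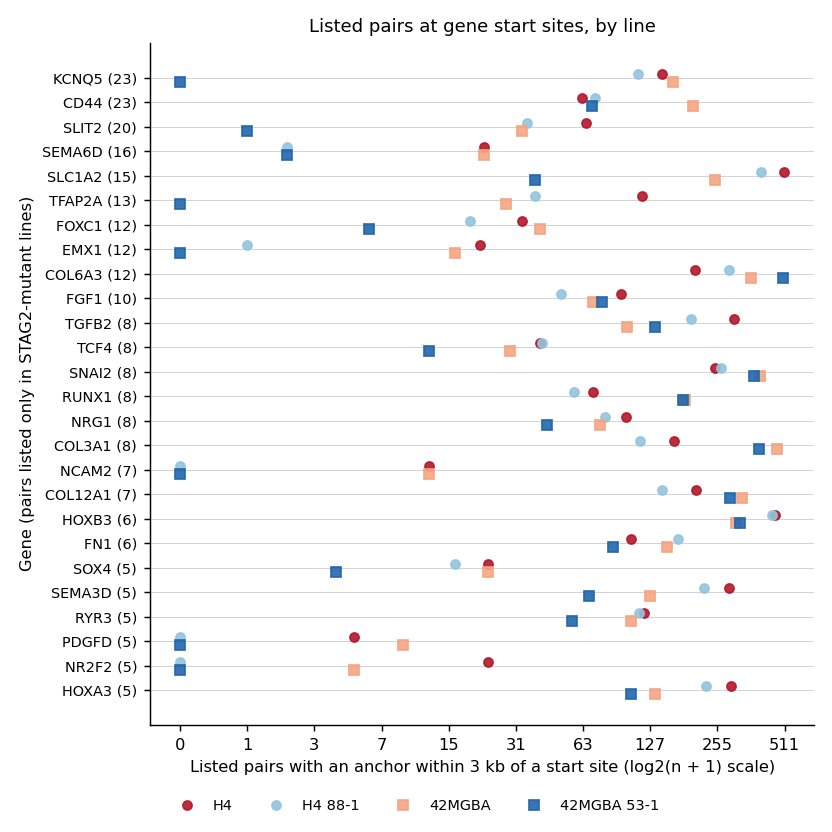
Number of listed pairs with an anchor within 3 kb of a gene's start (x axis, log2(n + 1) scale) in each of the 4 lines, for genes of the fixed lists with 5 or more members; the number of members is in brackets (y axis). At SEMA6D, EMX1, NCAM2, PDGFD and NR2F2 both mutant lines lie right of both corrected lines, while at SNAI2, COL6A3, HOXB3 and RUNX1 the lines of a parent lie close together or in the other order.

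Genes with listed pairs in the mutant lines and none in the corrected lines were about as frequent as genes of the other patterns. Counting genes with at least 3 listed pairs at a start in each of 2 lines and 0 in the others, 40 (0.399%) had them in the mutant lines, 36 (0.359%) in the corrected lines, 40 (0.399%) in H4 with 42MGBA 53-1 and 31 (0.309%) in H4 88-1 with 42MGBA. NR2F2, NCAM2 and PDGFD were among the first 40.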

How the data were processed

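Hi-C libraries of 4 lines (Arima Hi-C+ kit, 2 replicates each, pooled by the authors) had been trimmed, aligned to hg19 with bowtie and reduced to unique pairs. The authors corrected bias with HiCorr, enhanced loops with DeepLoop and deposited, per line, a list of the 300000 strongest anchor pairs whose value is a loop strength, a signal that is never negative. Read depth is not in these lists. The versions of these tools are not given in the sources used here. The 12 RNA-seq samples were not analysed here.

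Lists were joined on identical anchor strings with pandas 2.3.3. Of the anchors, 99.998% began within 5 bases of a GATC or GANTC site of GRCh37, and none passed a chromosome end, so this genome and its GENCODE v44 annotation were used. Genes were assigned by the start of any annotated transcript within 3 kb, so a counted start can lie inside a gene or near its downstream end. Scripts were tested on simulated lists. Lines were compared by counts, medians and exact binomial or order-statistic 95% intervals, which cover counting only. Set for description were the strongest member of the 12 largest groups, the 8 largest margins and the longest, shortest and weakest members. Genes of fixed lists with a member were added. Not all of these are described above, and for some groups only counts or highest strengths are given.

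Members and gene lists were chosen with earlier results of these data known. Alternatives changed list depth, floor, absence, joining distance, start distance, motif and chromosomes.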

Additional observations from a re-analysis of the deposited data

How the results depend on the processing

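Each line had 1 pooled list, so no replicate could be left out. No paired analysis was possible because the replicates of each line were pooled before deposit and no test was run. Of 47 recomputed values, 18 moved by less than the counting interval or stayed within 1.5 times a count. The ratio of members to the mean of the crossed patterns fell below 1 under 1 common strength floor (0.963) and when presence in the mutant lines alone required the 200000 strongest (0.796), which by construction thins the members more than the crossed patterns. The number of members was 2911 among the 100000 strongest pairs of each line, 1931 with presence among the 200000 strongest of the mutant lines or of every line, and 1994 where absence also excluded pairs within 1 anchor step. The median size was 460 kb, 533 kb, 533 kb and 527 kb in that order, 428 kb without chromosome 2 and 378 kb with 1 member per group. The ratio was 1.52 among the 200000 and 1.54 among the 100000 strongest, 1.78 with presence among the 200000 strongest of every line, 1.57 with the wider absence and 1.30 without chromosomes 21, 13, 11 and 6. The difference in median size from pairs listed only in the corrected lines was 256 kb among the 100000 strongest, 334 kb under both alternatives of presence, 349 kb with the wider absence, 229.9 kb without chromosome 2 and 168 kb with 1 pair per group in both patterns. It was above 0 in each of the 10 alternatives computed for it. Members without a listed pair within 2 anchor steps were 13.0%. A start site within 0 kb was found for 25.04%, within 10 kb for 61.7% and for any annotated gene for 58.7%. Inward-facing CTCF matches were found in 0.0335% with the short core and 0.483% with 1 member per group. Apart from the thinning named above, the cause of these changes was not tested. The alternatives without those 4 chromosomes, with 1 pair per group in both patterns and with presence among the 200000 strongest of every line were chosen after seeing the data.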

Other observations

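At CHD2, a chromatin remodeller gene of chromosome 15, 14 members of 38.8 to 76.8 kb lay within the gene, with strengths of 4.21 to 4.68 in H4 and 4.50 to 5.19 in 42MGBA, and none had a pair within 5 anchor steps in a corrected line. HP1BP3, a heterochromatin protein gene, had 15 members of 4.91 to 39.1 kb among 45 listed pairs in H4, 6 in H4 88-1, 25 in 42MGBA, with 28 in 42MGBA 53-1. CFL1, the gene of the actin-severing protein cofilin, had 18 members of 24.5 to 201 kb among 86, 93, 141 and 88 pairs.

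ACAT1, a mitochondrial thiolase gene on chromosome 11, had 13 members of 523 to 547 kb among 15 listed pairs in H4, 1 in H4 88-1, 16 in 42MGBA, with 0 in 42MGBA 53-1. HS3ST1, a heparan sulfate sulfotransferase gene, had 14 of 835 to 869.8 kb among 40, 2, 18 and 0. The 5 genes described here were chosen after their values were seen.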
